A study of Mus musculus with 9 samples.

Results

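The 39 Hox cluster genes were examined in RIPiT-seq data from mouse embryonic stem cells (ESCs). They are all rows of the deposited gene table named Hoxa, Hoxb, Hoxc or Hoxd with a number, 39 of the 24132 gene symbols. There are 11 Hoxa genes on chromosome 6, 10 Hoxb genes on chromosome 11, 9 Hoxc genes on chromosome 15 and 9 Hoxd genes on chromosome 2. RIPiT-seq recovers the RNA that stays crosslinked to a protein through consecutive FLAG and HA purifications, and sequences it next to an input of the same cells. The 3 lines were V6.5 ESCs of the 129/B6 F1 hybrid background that had been infected with a lentivirus. The first carried an empty vector with no tagged protein, the second FLAG-HA-tagged human WDR5 WT, and the third FLAG-HA-tagged human WDR5 F266A, a mutant chosen by the study for its loss of RNA binding. All lines retained mouse Wdr5, were selected with puromycin and were grown with LIF and no feeder cells. Each line had 1 input and 2 IP libraries, 9 libraries in all. Per the study each line is a selected clone, and the F266A construct also lacks a stretch of the WDR5 N terminus, so that clone, truncation and mutation cannot be told apart.

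Hox genes encode homeodomain transcription factors that give positional identity along the body axis. Genes of group 1 lie at the 3′ end of a cluster and are switched on first and most anteriorly, and genes of group 13 lie at the 5′ end and act last and most posteriorly. In ESCs the clusters are held silent by Polycomb complexes, and MLL complexes, of which WDR5 is a core subunit, deposit H3K4 methylation when they are activated. In other cells the lncRNA HOTTIP, transcribed beyond the 5′ end of HOXA, binds WDR5 and acts on the 5′ HOXA genes. The question here was which Hox RNAs were present in these ESC libraries, and whether any was enriched with WDR5 WT.

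The promoters of 3 genes are shown because they belong to genes of different level and position described next. Hoxc13 had the highest RPKM of the 39 genes, Hoxa2, near the 3′ end of its cluster, was highest in F266A, and Hoxa13, the most 5′ Hoxa gene, was close to 0. The sequences are the 250 bases before the start of the longest coding transcript in GENCODE M1, read from mm9 and written 5′ to 3′ on the strand of the gene, with every CG in capitals. They cover chr15:102751284-102751533 (plus strand), chr6:52115413-52115662 (minus strand) and chr6:52210798-52211047 (minus strand).
Hoxc13: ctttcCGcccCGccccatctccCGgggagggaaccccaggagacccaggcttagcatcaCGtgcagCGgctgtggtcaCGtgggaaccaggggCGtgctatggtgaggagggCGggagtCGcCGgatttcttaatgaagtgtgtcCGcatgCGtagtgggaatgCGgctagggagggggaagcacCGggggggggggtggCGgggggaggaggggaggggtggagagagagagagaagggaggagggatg
Hoxa2: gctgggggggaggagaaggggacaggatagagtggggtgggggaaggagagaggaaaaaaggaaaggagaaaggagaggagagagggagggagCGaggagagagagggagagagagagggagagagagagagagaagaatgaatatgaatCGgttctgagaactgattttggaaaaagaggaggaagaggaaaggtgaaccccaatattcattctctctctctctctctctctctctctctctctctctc
Hoxa13: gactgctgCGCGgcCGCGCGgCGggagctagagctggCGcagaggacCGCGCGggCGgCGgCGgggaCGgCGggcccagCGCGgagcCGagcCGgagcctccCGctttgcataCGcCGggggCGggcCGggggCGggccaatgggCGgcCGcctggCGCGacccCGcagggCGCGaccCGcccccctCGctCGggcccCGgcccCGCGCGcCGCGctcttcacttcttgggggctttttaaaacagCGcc
CG reads the same on both strands, and no other motif was searched. It occurs 15 times before Hoxc13, 2 times before Hoxa2 and 42 times before Hoxa13. At least as many were found before 32.9%, 83.4% and 1.05%, respectively, of 22375 protein-coding genes. The median was 12 over the 39 Hox genes and 8 over the protein-coding genes, with a range from 2 (Hoxa2) to 42 (Hoxa13) among the Hox genes. The gene with the densest CG of the 39 was therefore one of those with almost no RNA in these libraries.

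Hox RNA was close to the detection limit in every library. None of the 39 genes reached 1 RPKM (reads per kilobase of transcript, scaled to the mapped reads of a library) anywhere, whereas 9787 of the 24132 genes did so in at least 2 libraries. The highest single value was 0.415, for Hoxc13. The median over the 39 genes of the mean RPKM of the 9 libraries was 0.0074, against 0.309 over all genes, and Hoxc13 itself, with 49.9% of genes above it, lay at about that median. The number of Hox genes above 0 was lowest, at 9, in the empty vector IP replicate 2, which was also the least deeply sequenced library, and highest, at 23, in the F266A input. Depth, estimated from the value of 1 read, ran from 13400000 to 50200000 mapped reads.

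The reads behind these values were few. A read equivalent is the RPKM multiplied by the length of the longest coding transcript and by the estimated depth. The 39 genes together had 624.2 read equivalents over the 9 libraries, and Hoxc13 alone held 32.7% of them. Of the 151 Hox values above 0, 135 rested on fewer than 10 read equivalents. Of the 151, 49.7% lay within 0.1 of a whole number, so that read equivalents are approximate. The part of transcript length and of the depth estimate in this was not tested. Intervals and limits below cover counting error only, since copies made by amplification are not independent molecules.

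Of the 39 genes, 5 were above 0 in all 9 libraries (Hoxc10, Hoxc12, Hoxc13, Hoxd8 and Hoxd13), 23 in 2 to 8 libraries and 6 in a single library. The remaining 5 genes, Hoxa6, Hoxb5, Hoxb6, Hoxd4 and Hoxd10, were at 0 in all libraries. For these a count of 0 over all 9 libraries allows an RPKM of up to 0.00399 (Hoxb5) to 0.00648 (Hoxa6), taking 3 reads as the limit. Of 97 rows whose names begin with Rpl or Rps and a number, as those of ribosomal protein genes do, 1 held a 0 in any library.

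**Figure D1:**
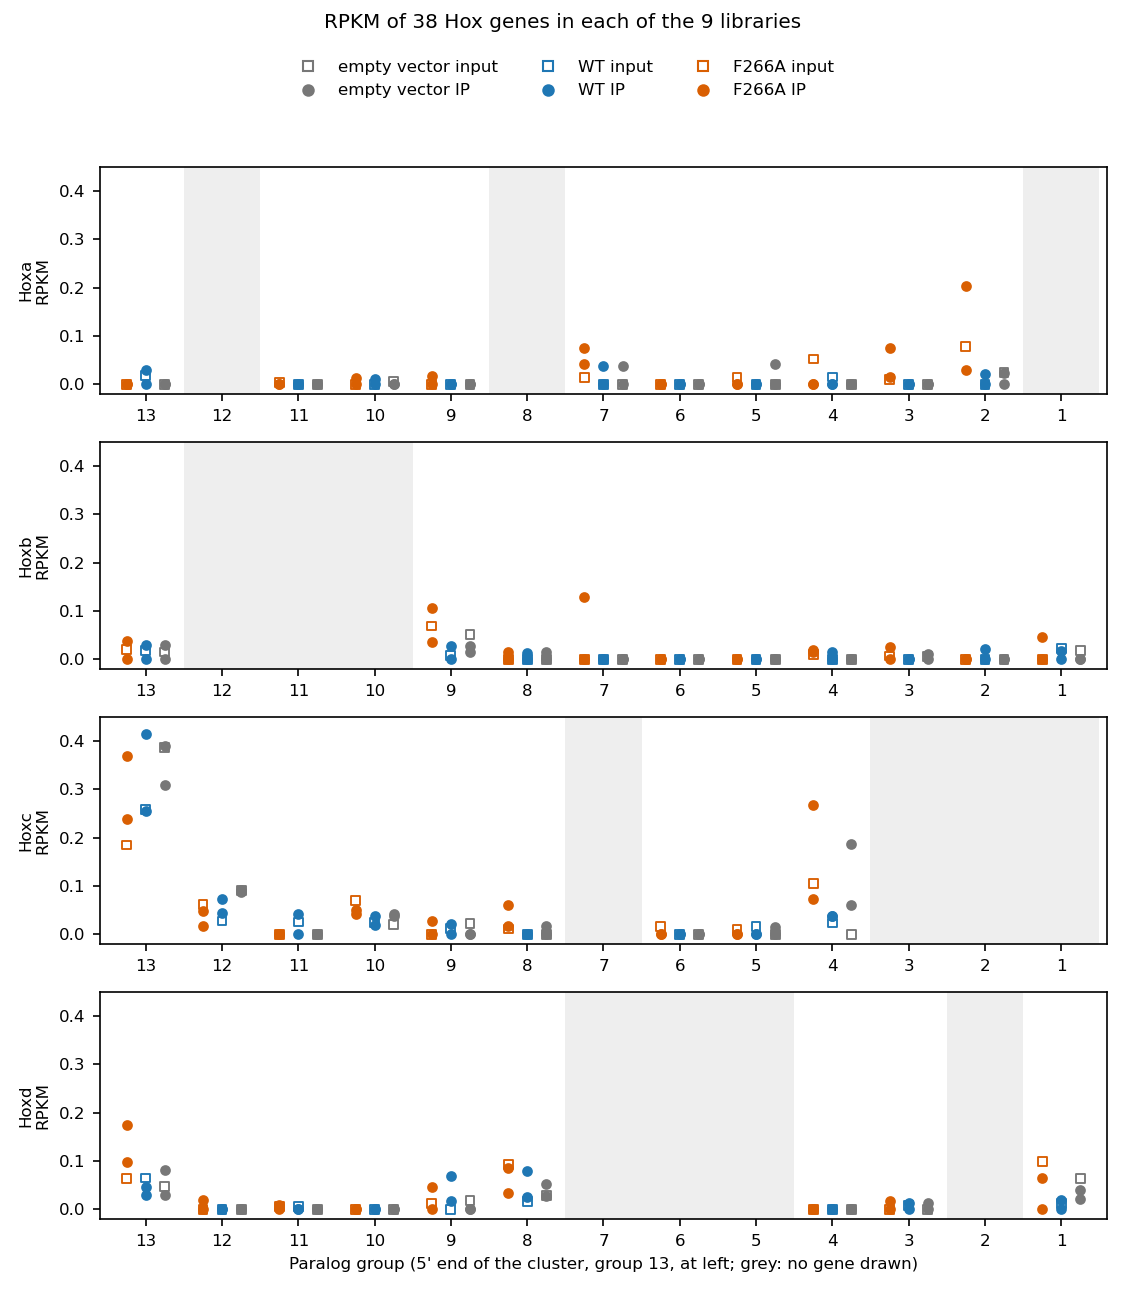
RPKM (linear axis) of 38 Hox genes, 1 panel per cluster, with the paralog group on the horizontal axis from the 5′ end (13) to the 3′ end (1). Open squares are inputs and circles are IPs, coloured by line. Hoxc13 is the only gene above 0.18 in all 9 libraries, and most other genes sit at or near 0.

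By cluster, Hoxc held 48.5% of the read equivalents, Hoxa 21.6%, Hoxd 18.7% and Hoxb 11.2%. By position, genes of groups 9 to 13 held 56.8%, groups 1 to 4 held 31.7% and groups 5 to 8 held 11.5%. The middle of the clusters therefore held the least RNA, and Hoxc13 held the larger part of the 5′ share.

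Hoxc13, a 5′ gene known for its role in hair and nail, started in the empty vector line from an input RPKM of 0.387, with 0.390 and 0.309 in IP replicates 1 and 2. The WT input had 0.258, next to 0.254 and 0.415 after purification. The F266A input had 0.185, next to 0.239 and 0.368 after purification. All 3 lines overlapped, and both the lowest value of WT and the lowest of F266A were under the lowest of the empty vector line. Its neighbour Hoxc12 had means over the 3 libraries of a line of 0.0898 ± 0.0014 (SD, n = 3) for the empty vector, 0.0484 ± 0.0227 (SD, n = 3) for WT and 0.0428 ± 0.0226 (SD, n = 3) for F266A. The 3 empty vector values of Hoxc12 were above the other 6, at 1.2 to 4.7 read equivalents each. These means pool 1 input and 2 IPs of a line, as do those given below.

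Of the other 5′ genes, Hoxd13, which patterns the digits, ranged from 0.0290 (WT IP replicate 1) to 0.174 (F266A IP replicate 1). Its RPKM was 0.0641, 0.174 and 0.0985 in the F266A input and IPs, 0.0650, 0.0290 and 0.0454 in those of WT, and 0.0480, 0.0806 and 0.0300 in those of the empty vector line. The lines overlapped. Hoxb9, a thoracic patterning gene, reached 0.106 in the F266A IP replicate 2 and was at 0 in the WT IP replicate 2. Hoxb13 was above 0 in 6 libraries, with at most 0.0372.

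The 5′ Hoxa genes, the targets of HOTTIP in other cells, were nearly absent. Hoxa9 was above 0 only in the F266A IP replicate 2 (0.0181), and Hoxa11 only in the F266A input (0.00412). Hoxa10 was above 0 in the empty vector input (0.00635), the F266A IP replicate 2 (0.0131) and the WT IP replicate 1 (0.0117). Hoxa13 was at 0 in the 6 libraries of the empty vector and F266A lines and in the WT IP replicate 1, and had RPKM of 0.0179 in the WT input and 0.0289 in the WT IP replicate 2, or 1.8 read equivalents each. Together these 4 genes had 7.94 read equivalents in the 9 libraries, 1.27% of the Hox total. A difference between lines or between IP and input was not detectable for any of them at this depth. Hottip has no row under that name in the table and was not analysed here.

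At the 3′ end, Hoxa2, which specifies the second pharyngeal arch, was highest in F266A. Its RPKM was 0.0790, 0.203 and 0.0296 in the F266A input and IPs, 0, 0.0218 and 0 in those of WT, and 0.0237, 0.0238 and 0 in those of the empty vector line. The lowest F266A value was 1.7 read equivalents. Hoxa3, next in the cluster and chosen after its values were seen, was at 0 in all 6 WT and empty vector libraries and had 0.0105 in the F266A input and 0.0762 and 0.0161 in its IPs. Both genes were thus above all 6 other libraries in the F266A input as well as in its IPs. The annotated exons of Hoxa2 and Hoxa3 overlap on the same strand, and reads in the shared stretch cannot be told apart. Hoxa3 also shares bases with 3 genes on the opposite strand, and the libraries did not record strand. In all, 18 of the 39 Hox genes share exonic bases with another annotated gene.

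**Figure D2:**
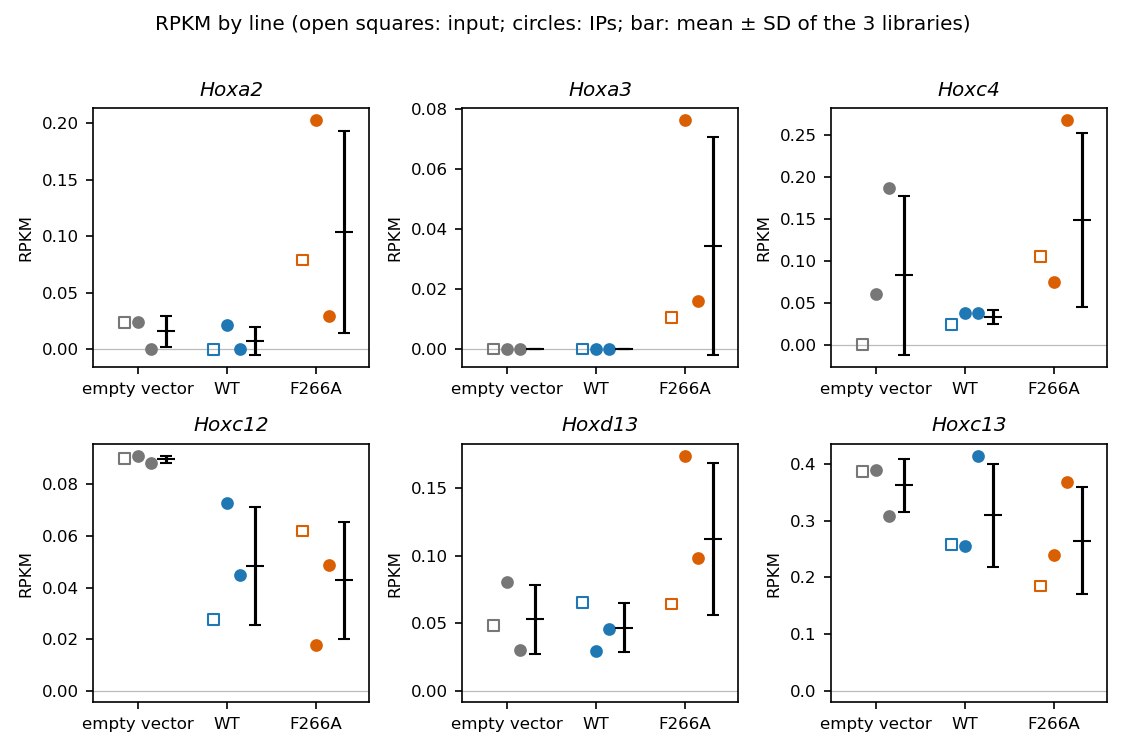
RPKM of 6 Hox genes by line, each panel with its own linear axis. Open squares are inputs, circles are IPs, and the black bar is the mean ± SD of the 3 libraries of a line. The F266A points lie above all others for Hoxa2 and Hoxa3, the empty vector points lie above all others for Hoxc12, and the lines overlap for Hoxc4, Hoxd13 and Hoxc13.

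Hoxc4, also of the 3′ part, varied widely. The F266A libraries had 0.105 before and 0.0740 and 0.267 after purification, and the empty vector line went from 0 to 0.0601 and 0.187. In WT it stayed between 0.0236 and 0.0381. Hoxd1 ranged from 0 to 0.0995 and Hoxd8 from 0.0164 to 0.0936, each highest in the F266A input. Hoxa7 was above 0 in 5 libraries, with at most 0.0748 in the F266A IP replicate 1. Hoxb7 was found in 1 library only, the F266A IP replicate 2, with an RPKM of 0.129. That is 12.0 read equivalents for its longest transcript of 3831 nt, and fewer if the authors used a shorter one. Hoxd9 had at most 0.0696, in the WT IP replicate 1.

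Before the lines are compared across genes, 1 library has to be set apart. The F266A IP replicate 1 had an RPKM of 0.0383 for the Y-linked Ddx3y, Uty and Eif2s3y together, against 4.43 in the F266A input and 7.21 in the F266A IP replicate 2. The empty vector libraries had 7.41 to 9.48 and the WT libraries 0.182 to 0.324. The summed RPKM of 16 primitive endoderm markers was 59.5 in the F266A input and 75.4 in the F266A IP replicate 2, but 22.3 in the F266A IP replicate 1, below the 23.2 to 30.4 of the other 6 libraries. Of the 16 markers 8, among them Gata4, Gata6 and Sox7, were above the other lines in all 3 F266A libraries, and Afp and Ttr were at 0 throughout. The same held for 2 of 8 neural markers (Sox1 and Zic1) and 0 of 8 mesoderm markers, whose sums overlapped between the lines. Whether this library came from the same clone as the other F266A libraries was not tested, and it is part of every F266A mean over 3 libraries given here. Values without it are given beside the counts and cluster sums that follow. The 10 ESC markers were all above an RPKM of 1 in at least 2 libraries, and their sum lay between 543.0 and 872.5 in all 9. Of the 10 fibroblast markers 1 (Thy1) did so, and 3 were at 0 throughout.

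Of the 34 Hox genes above 0 in at least 1 library, 4 had all 3 F266A values above the other 6, with Hoxa2, Hoxa3 and Hoxc10 among them. The same held for 3.19% of the 20431 genes above 0 in at least 1 library, and for 3.41% of the 8349 with a mean RPKM within the range of the Hox genes. None of the 34 had all F266A values below the others, against 4.83% of all genes. No line can lie below a library at 0, and only 5 Hox genes were above 0 in all 9 libraries. Being below the other lines was therefore impossible for most Hox genes, here and in the 2 other lines. Nothing is concluded from these counts. For the empty vector line the only gene above was Hoxc12 (1.02% of all genes) and none was below (2.19%). For WT no Hox gene was above (0.974%) or below (0.426%). Hoxc10, chosen after its values were seen, had a lowest F266A value of 0.0429 next to a highest value of 0.0414 in the other lines, at 2.0 read equivalents each. Without the F266A IP replicate 1 the number of genes above rose from 4 to 8, with Hoxb9, Hoxd1, Hoxd8 and Hoxd11 added, against 6.14% of all genes. In that setting Hoxd1, at 0 to 1.0 read equivalents per WT library, was below the other lines in WT (0.592% of all genes). Hoxc12 stayed the only gene above in the empty vector line (1.35%), and the remaining counts did not change.

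The sums over genes given next use the same values as the counts above, and are not separate evidence for a difference between lines. Without Hoxc13, the other 38 Hox genes had a summed RPKM of 1.0 in the F266A input, 1.38 in IP replicate 1 and 1.27 in IP replicate 2. The sum was 0.502, 0.586 and 0.502 in the empty vector input and IPs, and 0.376, 0.511 and 0.461 in those of WT. No F266A library overlapped with the other lines. After Hoxa2 and Hoxa3 were left out as well, the remaining 36 genes had 0.914, 1.1 and 1.22 in F266A and 0.376 to 0.563 in the other 6 libraries. The last of these F266A values was 1.09 when Hoxb7 was left out too. The 36 genes still held Hoxc10 and the other gene whose F266A values were all above the other lines. For comparison, the 8315 other genes within the same range of mean RPKM summed to 521.2, 628.1 and 676.4 in the F266A libraries and to 528.7 to 651.8 in the others, so that these overlapped. The part of other cell types in the Hox sums was not tested. Fewer cells of a type and less RNA per cell cannot be told apart in these bulk samples.

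**Figure D3:**
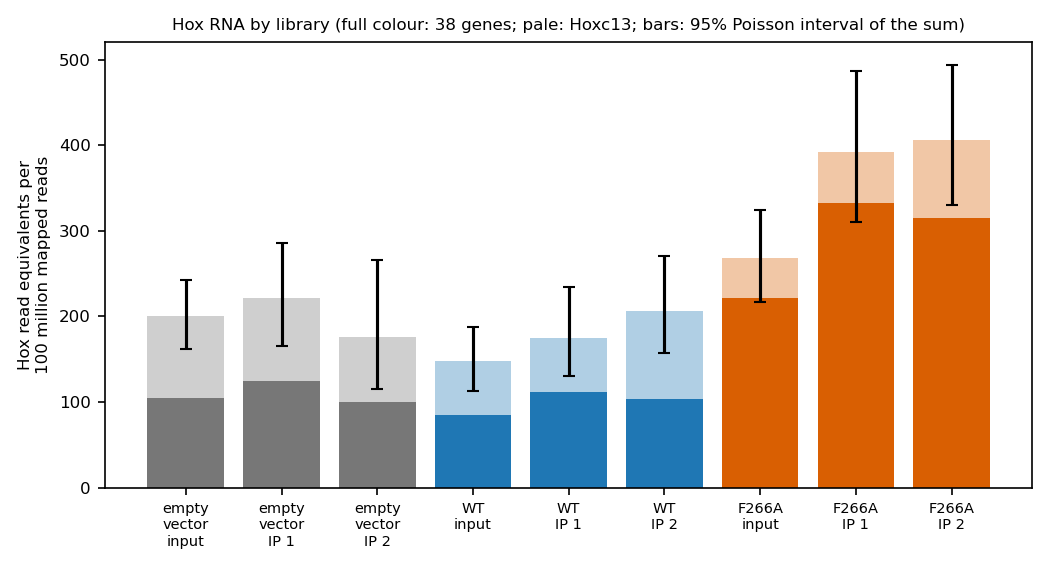
Hox read equivalents per 100000000 mapped reads in each library, with Hoxc13 in the pale part of a bar and the other 38 genes in the full colour. Error bars are 95% Poisson intervals of the sum of all 39 genes. The F266A libraries have 268 to 406 and the others 148 to 221, and the part without Hoxc13 is 222 to 333 against 84.8 to 125. The interval of the F266A input, 217 to 324, overlaps those of all empty vector libraries and of the WT IPs. The intervals of the F266A IPs overlap none of the other lines.

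The sums differed by cluster. The summed RPKM of Hoxa was 0.467 ± 0.192 (SD, n = 3) in F266A, 0.108 ± 0.032 (SD, n = 3) in WT and 0.101 ± 0.056 (SD, n = 3) with the empty vector. Hoxb had 0.180 ± 0.080 (SD, n = 3), 0.0579 ± 0.0204 (SD, n = 3) and 0.0634 ± 0.0326 (SD, n = 3) in the same order, and Hoxd 0.276 ± 0.015 (SD, n = 3), 0.136 ± 0.028 (SD, n = 3) and 0.142 ± 0.018 (SD, n = 3). Hoxc, which holds Hoxc13, had 0.559 ± 0.161 (SD, n = 3) in F266A, 0.457 ± 0.107 (SD, n = 3) in WT and 0.586 ± 0.057 (SD, n = 3) with the empty vector, so that these lines overlapped. The 3 F266A libraries were above the other 6 for Hoxa, Hoxb and Hoxd. Without the F266A IP replicate 1, the F266A input and IP replicate 2 had 0.346 and 0.366 for Hoxa, 0.107 and 0.266 for Hoxb and 0.276 and 0.260 for Hoxd, all above the other lines as well. By position, groups 1 to 4 summed to 0.536 to 0.797 in F266A and to 0.133 to 0.227 in the other lines, and groups 5 to 8 to 0.159 to 0.290 and 0.0280 to 0.117. Groups 9 to 13 summed to 0.493 to 0.705 in F266A and 0.463 to 0.663 in the others and overlapped. Without Hoxc13 they had 0.308, 0.411 and 0.337 in the F266A input and IPs and 0.185 to 0.274 in the other 6 libraries, with no overlap.

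Tests were limited by these levels. The planned limma comparison was limited to genes that reached 1 RPKM in 2 or more libraries, and no Hox gene entered it. When every gene above 0 in at least 1 library was kept, 34 Hox genes were tested among 20431 genes. All IPs against inputs gave 1 Hox gene with an adjusted p under 0.05 (limma with Benjamini-Hochberg adjustment), Hoxa4, where 15.9% of all genes passed. Hoxa4 was at 0 in all 6 IPs and had RPKM of 0.0524 in the F266A input and 0.0153 in the WT input, about 3.1 and 1.0 read equivalents (log2 difference of IPs minus inputs -0.03, standard error 0.0044, adjusted p = 0.0258). Its spread between replicates was 0 because all IPs were 0, so that this call rests on 2 inputs without a replicate. It was lost when either empty vector IP was left out (adjusted p = 0.0929 and 0.0876) and in 4 other settings.

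None of the 34 Hox genes passed in the 3 comparisons of enrichment between lines, where 0.162% of all genes passed for WT against F266A, 0.22% for WT against the empty vector and 0.108% for F266A against the empty vector. At an unadjusted p under 0.05 the numbers of Hox genes were 1, 0 and 1, in both cases Hoxa4, against 4.51%, 3.41% and 4.28% of all genes. None passed in the comparisons of IPs without inputs, where 0% of all genes passed for WT against F266A and 0.00979% for each line against the empty vector. At an unadjusted p under 0.05 there were 2 Hox genes for WT against F266A (with Hoxd13 among them), 0 for WT against the empty vector and 2 for F266A against the empty vector (with Hoxc12 among them). Over all genes these shares were 11.9%, 6.5% and 15.8%. Hox counts of 0 to 2 are too small to be set against these shares. The Hox counts rose in some settings with 1 IP left out, so nothing is concluded from them.

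These differences are given on the log2 (RPKM + 1) scale, which understates changes at such low levels. Hoxd13 differed by -0.13 with a standard error of 0.04 between WT and F266A IPs (adjusted p = 0.369), and Hoxc12 by -0.08 with a standard error of 0.02 between F266A and empty vector IPs (adjusted p = 0.231). Neither passed the correction over all genes.

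Enrichment with WDR5 WT was also judged by the rule of the study. The score was calculated here as log2 (RPKM + 1) of an IP minus that of its input. The value of 1 added to the RPKM is a choice made here, as the study names no such value. Both WT scores have to be positive and to exceed every score from the F266A and empty vector lines. Hoxc12 was the only one of the 39 Hox genes that met it, against 4.79% of all 24132 genes. It no longer met the rule with centred scores or with the mean of the 3 inputs. It scored 0.06 and 0.02 with WT, -0.06 and -0.02 with F266A, and 0.0016 and -0.0021 with the empty vector. The WT values rest on 1.2 read equivalents before purification and on 2.0 and 1.2 after it, and the RPKM of Hoxc12 in the WT IPs, 0.0727 and 0.0447, was below that in all 3 empty vector libraries. The rule has no error term. Scores above 0 were seen for 4 (empty vector IP replicate 2) to 15 Hox genes (F266A IP replicate 1), and scores below 0 for 7 to 13. Of the 20431 genes above 0 in at least 1 library, 64.9% (empty vector IP replicate 2) to 74.8% (F266A IP replicate 2) scored above 0. The score was exactly 0 for 12 to 22 of the 39 genes, including the 5 genes at 0 in all libraries, so that no typical Hox score can be given.

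Genes that act on or with the Hox clusters were expressed at quite different levels. The 8 Trithorax genes in the table, which include Wdr5 and the gene for MLL1, had mean RPKM from 3.07 to 17.5, and 11 of 12 Polycomb genes passed the filter, with means of up to 86.7 (Phc1). In the planned limma comparison 6 of the 8 Trithorax genes and 9 of the 11 Polycomb genes were higher in the IPs than in the inputs, as were 5521 of all 9787 genes, and none of either list passed between lines. The shift of all genes, a median of 0.30 on the log2 scale, fell to 0.0027 after quantile normalization, which by design gives all libraries the same distribution. After that step, 101 of the 9787 genes were called higher in the IPs and 135 lower. Of the 9 Hox cofactors, which bind DNA together with Hox proteins, Pbx2, Pbx3 and Pknox1 passed the filter, and Meis1 had 0.258, 0.281 and 0.259 in the F266A libraries and 0.0377 to 0.124 in the others. The 6 Cdx and ParaHox genes, of which the Cdx genes activate Hox transcription, had mean RPKM of 0.0113 to 0.169. Cdx2 was above 0 only in F266A, with 0.0249, 0.0908 and 0.0191. Of 13 retinoic acid genes, whose signal induces 3′ Hox genes, 5 passed the filter, and Cyp26a1, a sensitive target, had at most 0.0620. In none of these lists but Meis1, Cdx2, Ash2l and Bmi1 were the 3 F266A libraries all above the others.

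**Figure D4:**
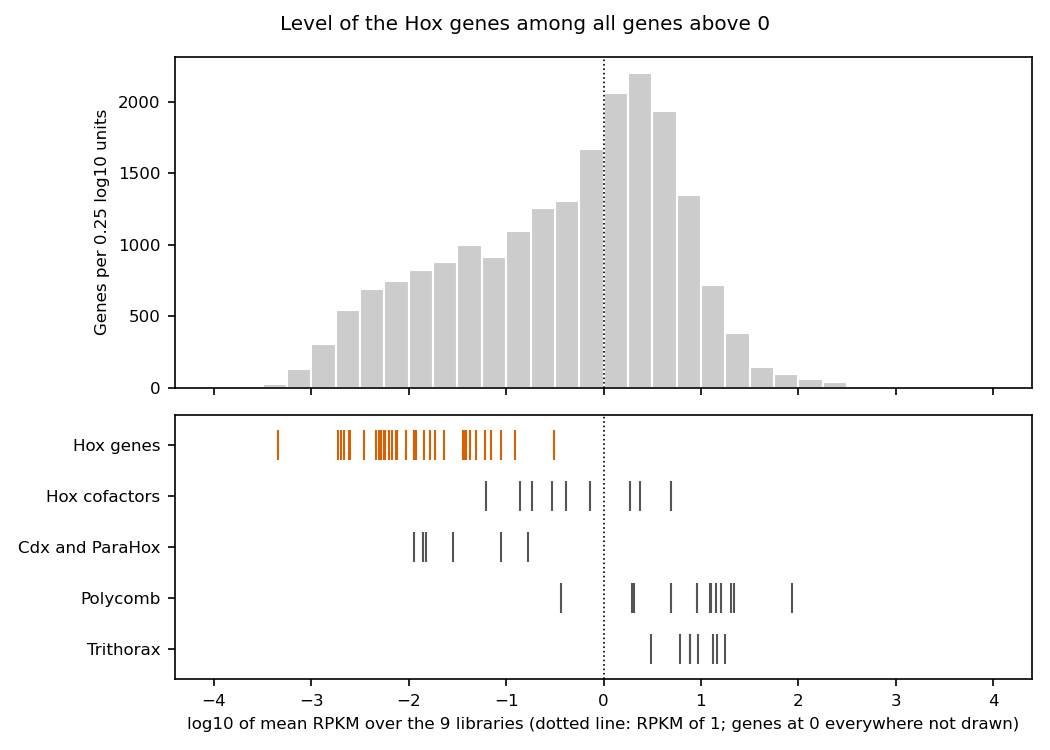
Number of genes by log10 of the mean RPKM over the 9 libraries (top, 0.25 units per bar) and the position of each Hox gene and of 4 gene lists on the same log axis (bottom). All 34 Hox genes above 0 lie left of the dotted line at an RPKM of 1, and the 8 Trithorax genes lie right of it.

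Of 19 noncoding RNA genes of the clusters that were looked for, 9 have a row. The microRNA genes Mir10a, Mir10b, Mir196a-2, Mir196b and Mir615 were at 0 in all libraries, and Mir196a-1 had 0.0798 in the F266A input, 0.358 in the WT input and 0 in the other 7 libraries. Read equivalents are not given for these microRNA genes, so that a 0 sets no limit on their RNA. Hotair, the lncRNA of the Hoxc cluster, had at most 0.0447 (empty vector input) and was at 0 in 4 of the 6 IPs. Mira, a noncoding RNA of the Hoxa cluster, had 0.134, 0.0684 and 0.154 in the F266A input and IPs and at most 0.0473 elsewhere, and was thus the only one of the 9 with all F266A values above the others. Among 13 neighbouring genes just outside the clusters, 10 passed the filter, with Atp5g1 at a mean of 26.6 next to Hoxb. Evx2, next to Hoxd13, was at 0 in all libraries and Evx1, next to Hoxa13, had at most 0.0383. The third neighbour that did not pass was Skap1, next to Hoxb, with a mean of 0.0677.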

How the data were processed

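Reads were mapped by the authors with TopHat 1.1.3 (mm9), and the deposited values are RPKM for each RefSeq symbol from a script of theirs. The libraries were amplified with a kit that does not keep strand. RPKM were used as deposited, and whether replicates of a line came from separate cultures is not given in the sources used here, so p-values measure the spread between these libraries. Depth came from the commonest smallest product of RPKM and exon length (GENCODE M1), the value of 1 read. Read equivalents used the longest coding transcript. For differences, limma 3.58.1 was run under R 4.3.3 (eBayes with trend, 1 coefficient per line and fraction) on log2 (RPKM + 1), with Benjamini-Hochberg adjustment over all genes and a threshold of 0.05. No Hox gene passed the filter (1 RPKM or more in 2 or more libraries), so genes above 0 in at least 1 library were also fitted. Inputs, with 1 library per line, were assumed to vary like the IPs. The fit was tested on simulated data, with changes only in genes that passed this filter, so that the test does not cover the level of the Hox genes. Named were the 3 genes of each cluster with the highest mean RPKM, Hoxa9, Hoxa10, Hoxa11 and Hoxa13, and genes that passed limma, or met the enrichment rule with a mean RPKM of at least 0.1. Hoxa3, Hoxc10, Hoxd9 and genes named only in counts were chosen after their values were seen. Of the Hox genes, 1 is not reported singly here. The Hox genes and all lists were chosen with earlier results of these data known. Python 3.11.15, numpy 2.4.6, pandas 2.3.3 and matplotlib 3.10.9 were used.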

Additional observations from a re-analysis of the deposited data

Results flagged for a closer look

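For 5 Hox genes the enrichment scores of both IPs were above 0 in 1 line and below 0 in another, and these differences passed no test after adjustment. For Hoxc10 the F266A minus empty vector difference was -0.0577 (means -0.03 and 0.03). For Hoxc12 WT was above F266A by 0.0826 (means 0.04 and -0.04). For Hoxd8 WT was above F266A by 0.0948 (means 0.05 and -0.05), and the F266A minus empty vector difference was -0.0620. For Hoxd9 WT was above the empty vector by 0.0885 (means 0.06 and -0.03). For Hoxd13 the WT minus F266A difference was -0.13 (means -0.04 and 0.09). The limma fit over all genes above 0 gave an adjusted p of 1 for each of these 6 differences. Both scores of a line share 1 input library, so that they are not independent.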

How the results depend on the processing

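With the planned filter no Hox gene was tested, and the number called was 0 in all 7 comparisons under every alternative that kept this filter. Without the filter 1 Hox gene (Hoxa4) was called for IPs against inputs, and 1 with a pseudocount of 0.1. Leaving out 1 IP at a time gave 0 to 2 genes for IPs against inputs, where 0% to 12.1% of all genes were called (Hoxb7 was added without the F266A IP replicate 1, adjusted p = 0.0441, and Hoxa3 without the F266A IP replicate 2, adjusted p = 0.0388), and 0 to 1 for WT against F266A IPs and for F266A against empty vector IPs, where Hoxb7 was called without the F266A IP replicate 1 (adjusted p = 0.0355 and 0.0336, against 0.284% and 0.46% of all genes), with 1 F266A IP left and a spread of 0. These settings were chosen after seeing the data. Across genes, the differences between replicates 1 and 2 correlated with r of 0.01 between the empty vector and F266A lines. The r was 0.11 between the empty vector and WT and 0.26 between F266A and WT. Whether IPs of the same replicate number share a batch was not tested. With the replicate number as a block 0 Hox genes were called in all comparisons, and the adjusted p of Hoxa4 rose to 0.0569. Over all settings run without the filter, the Hoxd13 difference between WT and F266A IPs and the Hoxc12 difference between F266A and empty vector IPs kept their direction and passed in none.

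The enrichment rule returned 0 Hox genes with centred scores (3.0% of all genes) and 0 with the mean of the 3 inputs (4.37%). With the filter at 0.1 RPKM, which only 3 Hox genes passed, it returned 0, against 5.88% of all genes past that filter. With 1 WT replicate left out it returned 3 (without replicate 2) and 6 (without replicate 1), against 13.4% and 13.9% of all genes. The number of Hox genes with all F266A values above the others was 4 to 8 with 1 F266A IP left out (3.93% of all genes without replicate 2 and 6.14% without replicate 1), and 4 after quantile normalization (6.3%), where Hoxb4 took the place of Hoxc10. The median score of Hox genes tested had no value with the planned filter. With a filter at an RPKM of 0.1 it covered 3 genes and was 0.14 in F266A, 0.02 in WT and -0.04 in the empty vector line. Quantile normalization changed these medians to 0.05 (F266A), 0.02 (WT) and -0.08 (empty vector). Without that step, F266A IP replicates 1 and 2 had median scores of 0.11 and 0.141 across 20431 genes. Such medians were 0.0657 and 0.0916 for WT, against 0.0676 and 0.0753 for the empty vector. The F266A value of 0.14 covers 3 Hox genes past a filter, whereas these medians cover genes of all levels above 0. The values are therefore not directly comparable. The cluster sums moved by less than 1 SD under quantile normalization. With each IP left out they also did, but leaving out 1 of 3 libraries cannot move a mean by 1 SD. That check therefore could not show a dependence on any IP.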
